A study of Mus musculus with 6 samples.

Results

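The nuclear-encoded subunits of respiratory complexes II, III, IV and V were examined in cerebellum RNA of 6 mice. Members were taken from the gene symbols of the authors' deposited table by name (Sdha to Sdhd, Cyc1, and symbols beginning with Uqcr, Cox4 to Cox8 or Atp5), leaving out pseudogenes ending in -ps. A gene also needed 10 or more reads on the reverse strand in at least 3 of the 6 libraries. Of 52 matching symbols, 4 were pseudogenes and 2 fell short of the read threshold. This left 46 members among 46983 gene identifiers: 4 of complex II, 9 of complex III, 17 of complex IV, 15 of complex V, and Atp5sl. The last is a gene now called Dmac2 that matches by name and is not an ATP synthase subunit. The rule used names and the read level, not the difference between groups.

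Complexes II, III and IV pass electrons from succinate and ubiquinol to oxygen in the inner mitochondrial membrane, and complexes III and IV pump protons as they do so. Complex V, the ATP synthase, lets the protons back through a rotating ring of c subunits and makes ATP. Several complex IV subunits come in a common form and a form found mainly in heart and skeletal muscle, lung or testis. Neurons of the cerebellum, and Purkinje cells among them, depend heavily on this pathway for ion pumping.

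All 6 mice were C57BL/6J animals at postnatal day 60, and all carried Tie2-Cre, a recombinase transgene active in endothelial cells and in blood lineages. The 3 animals labelled WT had 1 floxed and 1 wild-type Slc7a5 allele (fl/+), and the 3 labelled Slc7a5-KO (written KO-labelled from here on) had both alleles floxed (fl/fl). Slc7a5 encodes the large neutral amino acid transporter LAT1, and the series asks what its loss at the blood-brain barrier does to the brain. Recombination was thus directed at vessel and blood cells, while RNA came from the whole cerebellum, in which fewer cells of a type and less RNA per cell cannot be told apart.

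Depth was 13438182 to 34160856 reads in genes per library, with KO-labelled replicate 3 the shallowest. Slc7a5 itself stood at 72.0, 66.3 and 43.2 CPM (counts per 1000000 reads of the scaled library) in WT replicates 1 to 3, against 164, 59.4 and 118 CPM in the KO-labelled libraries, with a log2 fold change of 0.91 ± 0.42 SE (edgeR adjusted p = 0.84). The targeted transcript was thus not lower, and directions follow the labels; which exons were floxed is not stated in them. Xist and Y-linked reads gave 1 female and 2 males in WT, and 2 females and 1 male among the KO-labelled libraries. Summed choroid plexus markers were 286 CPM in KO-labelled replicate 2 and 3459 to 7844 CPM in the other libraries. Markers of granule neurons (3525 to 6048 CPM) and of Purkinje cells (5010 to 8074 CPM) were present in every library. The sum of the 12 Purkinje markers was 7180 to 8074 CPM in WT against 5010 to 6994 CPM in the KO-labelled libraries.

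Transcript levels of the members, compared per kb of transcript, spanned from Cox6b1 to Cox7b2. On that scale Cox6b1, the common form of a complex IV subunit that faces the intermembrane space, averaged 1179 CPM per kb over the 6 libraries. Cox4i1, the common form of the largest nuclear-encoded subunit of complex IV, followed with 1006 CPM per kb. Atp5e, the epsilon subunit of the ATP synthase stalk, had 674 CPM per kb and Uqcrq, a small subunit of complex III, 578 CPM per kb. The 4 complex II subunits lay close together, from 47.3 CPM per kb for Sdha to 109 CPM per kb for Sdhc. In complex III, 8 of 9 members lay between 85.7 CPM per kb (Uqcrc2) and 578 CPM per kb, and Uqcrb stood at 17.3 CPM per kb. The lowest members were a testis form, Cox7b2 (2.39 CPM per kb), Atp5g2, a gene for the c ring (3.89 CPM per kb), and Cox7c, a subunit without a tissue form (4.29 CPM per kb).

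**Figure D1:**
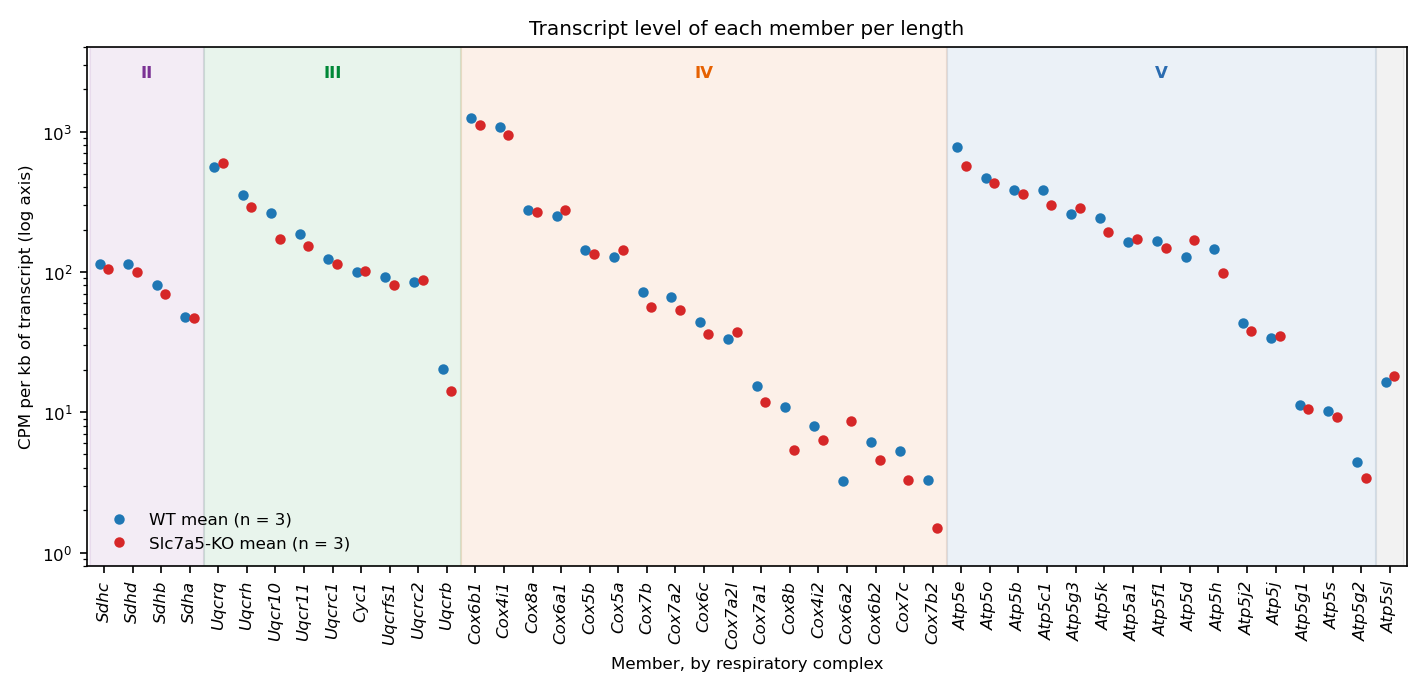
Mean level of each of the 46 members in CPM per kb of transcript (vertical log axis), with members on the horizontal axis ordered by level within their complex; blue points are means of 3 WT libraries and red points means of 3 KO-labelled libraries. Cox6b1 and Cox4i1 stand highest, and tissue forms of complex IV fill most of the low end.

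Some members share sequence with other genes. Reads mapping to several places are listed as 0 in every table, so a transcript with close copies can lose reads. Of the 50-base words in protein-coding transcripts, 87.4% for Atp5g2 also occurred in transcripts of other annotated genes, 50.3% for Atp5o, 43.4% for Uqcrb, 38.8% for Atp5h and 38.7% for Atp5f1. For Cox7c the share was 23.0%. High sharing and low level did not always go together: Atp5o was among the highest members, and Cox7b2, Cox6b2 and Cox8b, among the lowest, shared 0%. Values of the genes with shared words are uncertain for that reason, and the part of lost reads in them was not tested. Of the 2 matching symbols below the threshold, Atp5l, a membrane subunit of ATP synthase, had 23, 11 and 0 reads in WT and 1, 9 and 0 in the KO-labelled libraries, with 84.9% of its words shared with 14 other genes. The other, Cox8c, a testis form, had 0 reads in all 6 libraries. Nearest the threshold among the members, Cox7b2 had 93, 9 and 66 reads in WT and 19, 49 and 0 in the KO-labelled libraries, and was the only member without 10 reads in every library. Atp5g2, with the fewest reads in all of the other members, had 56, 111 and 59 against 46, 68 and 27.

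No member passed a false discovery rate of 0.05 between the groups. By edgeR's quasi-likelihood test, 0 of 46 members had an adjusted p under 0.05, where 0.0475% of the 16851 genes tested did. DESeq2 called 0 members (0.355% of the 13240 genes with an adjusted p, which Cox7b2 lacked). By limma-voom 0 members were called (0.0593% of the 16851). At an unadjusted p under 0.05, edgeR gave 7 members and limma-voom 6 (6.22% and 5.97% of the 16851 genes). DESeq2 gave 7 (5.4% of the 24585 genes it tested). Of the 7 by edgeR, 5 had lower KO-labelled values (Atp5h, Atp5e, Atp5c1, Cox7b and Cox8b), where 2.77% of all genes were, and 2 were higher (Cox6a2 and Atp5d), where 3.45% were. The authors' deposited table gave an adjusted p under 0.05 to Atp5h alone among the members (0.0484), on the lower side. Of its genes with an adjusted p, 0.9% were under 0.05, and 0.275% were so on the lower side.

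Most members nonetheless had log2 fold changes below 0. The median was -0.18 over the 46 members, against 0.0022 over all genes tested, with 34 members (73.9%) below 0, where 49.7% of all genes were. By complex, 4 of 4 members of complex II, 6 of 9 of complex III, 13 of 17 of complex IV and 11 of 15 of complex V were below 0. The medians were -0.14, -0.20, -0.28 and -0.13 in that order. For 7 members every KO-labelled library lay below every WT library (5.54% of all genes), and for 1, Atp5d, above (5.93%). The 7 were Sdhd, Uqcrb, Uqcrfs1, Cox8b, Atp5h, Atp5e and Atp5c1.

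**Figure D2:**
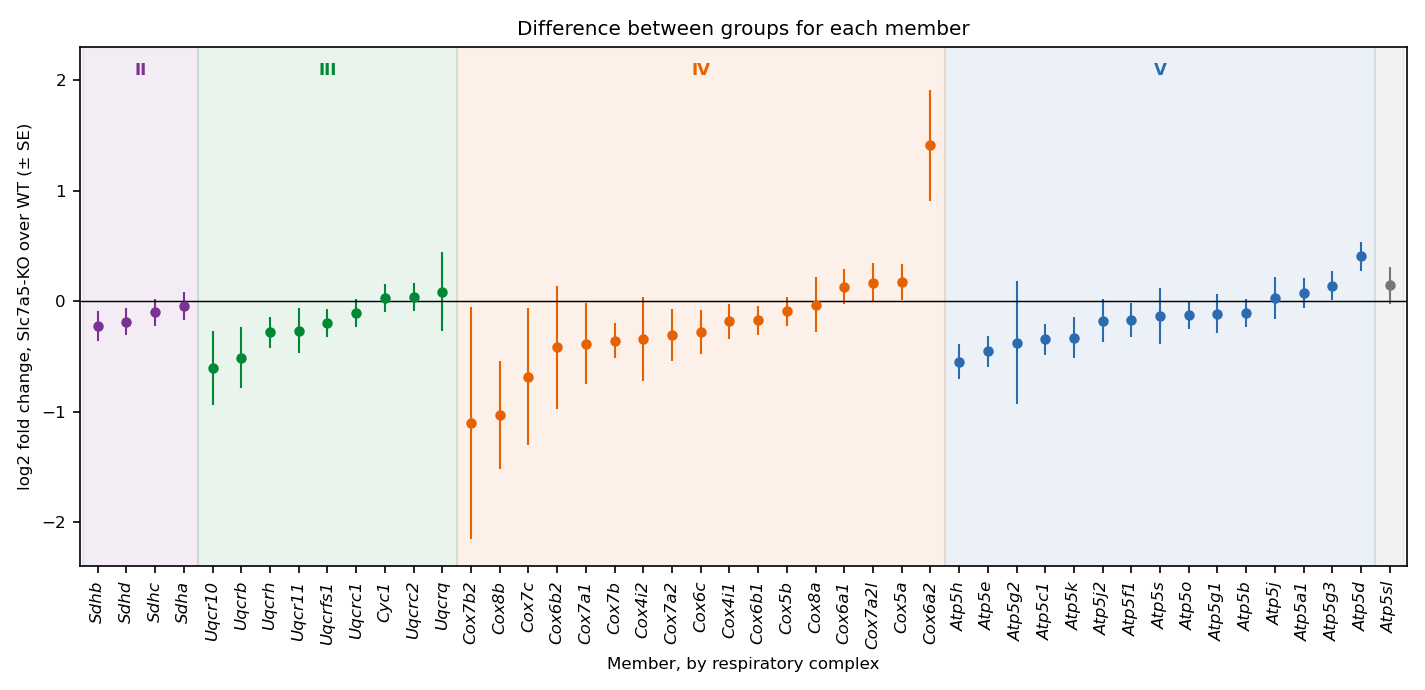
Log2 fold change of each of the 46 members, KO-labelled libraries over WT (vertical axis, bars are ± 1 SE from the edgeR fit, n = 3 per group), with members grouped by complex on the horizontal axis. Most points lie a little below 0, Cox6a2 (1.41) stands highest, and Cox7b2 (-1.10) and Cox8b (-1.03) lowest with wide bars.

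This lean was smaller without WT replicate 2. A score for each library, the mean over members of log2 CPM minus the gene's mean over the 6 libraries, was 0.0056, 0.28 and -0.034 in WT and -0.13, 0.078 and -0.20 in the KO-labelled libraries. WT replicate 2 was highest, and KO-labelled replicate 2 stood above WT replicates 1 and 3, so the scores of the groups overlapped. WT replicate 2 held the highest value of 27 of the 46 members. Without it the median of the members was -0.041, against 0.0041 over all genes, and 29 members were below 0, where 49.5% of all genes were. Then 2 members had an unadjusted edgeR p under 0.05 on the lower side (1.83% of all genes) and 3 on the higher side (3.28%), and 0 were called (0.0344%).

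The libraries had the same order in complexes III, IV and V, in complex IV partly through 1 gene with few reads. The score of complex III was -0.017, 0.35 and -0.044 in WT and -0.17, 0.080 and -0.20 in the KO-labelled libraries. That of complex IV was 0.045, 0.33 and -0.073 against -0.14, 0.15 and -0.31. That of complex V was -0.021, 0.25 and -0.022 against -0.11, 0.022 and -0.12. In all 3, replicate 2 was the highest of its group, in WT and among the KO-labelled libraries alike. Every gene counts alike in a score. In complex IV, Cox7b2 stood at 1.64 in WT replicate 3 and at -3.43 in KO-labelled replicate 3, where it had 0 reads. The order of the lower libraries in complex IV thus rested on that gene. Complex II spread less, at -0.019, 0.13 and 0.10 against -0.12, -0.0082 and -0.083, with KO-labelled replicate 2 just above WT replicate 1. Within the KO-labelled group, replicate 2 was the highest library for 29 of the 46 members.

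**Figure D3:**
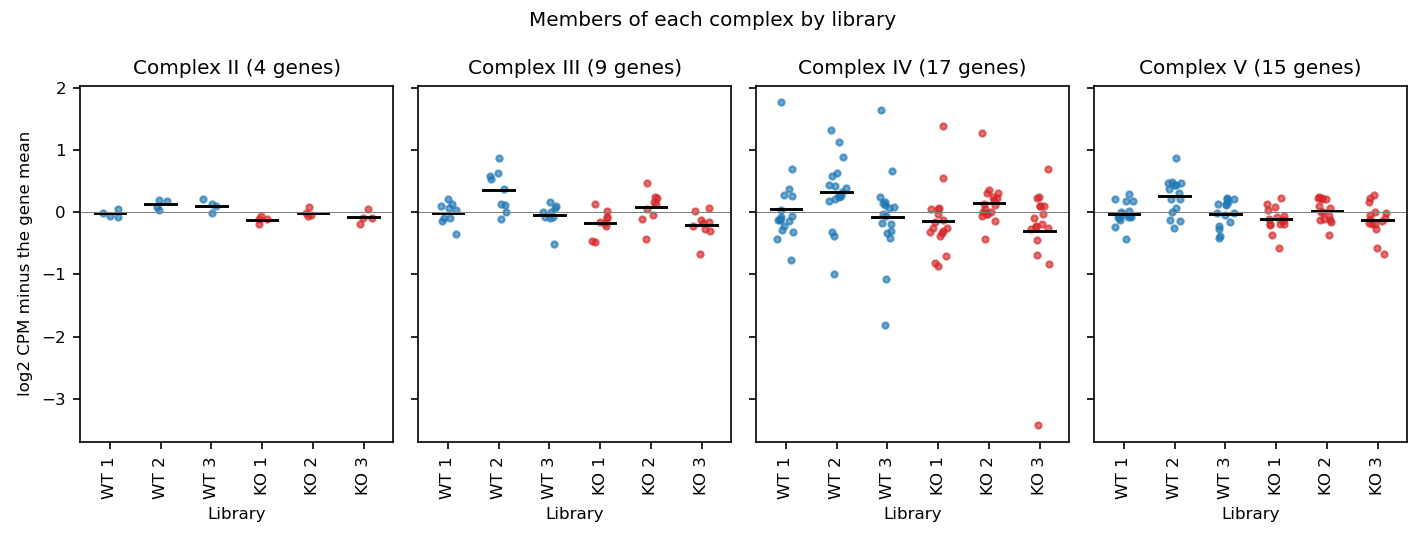
Log2 CPM of each member minus its mean over the 6 libraries (vertical axis) in each library (horizontal axis), 1 panel per complex; points are genes, blue for WT and red for KO-labelled libraries, and black lines are means. WT replicate 2 has the highest mean in every panel, and complex II spreads least.

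Members with short transcripts varied most between libraries. For the 29 members with transcripts under 1000 bases the score was -0.0026, 0.385 and -0.065 in WT and -0.18, 0.14 and -0.28 in the KO-labelled libraries. For the 17 longer ones it was 0.020, 0.10 and 0.019 against -0.046, -0.032 and -0.062, a narrower spread in which the groups did not overlap. The median log2 fold change was -0.28 in the shorter and -0.11 in the longer members. Over all genes tested, the 1062 with transcripts under 1000 bases had a median of -0.050 and scores of -0.0083, 0.16 and -0.071 against -0.021, 0.053 and -0.11, so replicate 2 was the highest of each group there as well. The 13482 longer genes had a median of 0.0058. Transcript length thus moved with the library differences among the members, and its part in the difference between groups was not tested. The shorter members include Cox7b2, Cox6b2, Cox8b, Cox7c, Atp5g2 and Cox6a2, which had few reads, so length and low counts are mixed here. Cox7b2 stood at -3.43 in KO-labelled replicate 3, where it had 0 reads.

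**Figure D4:**
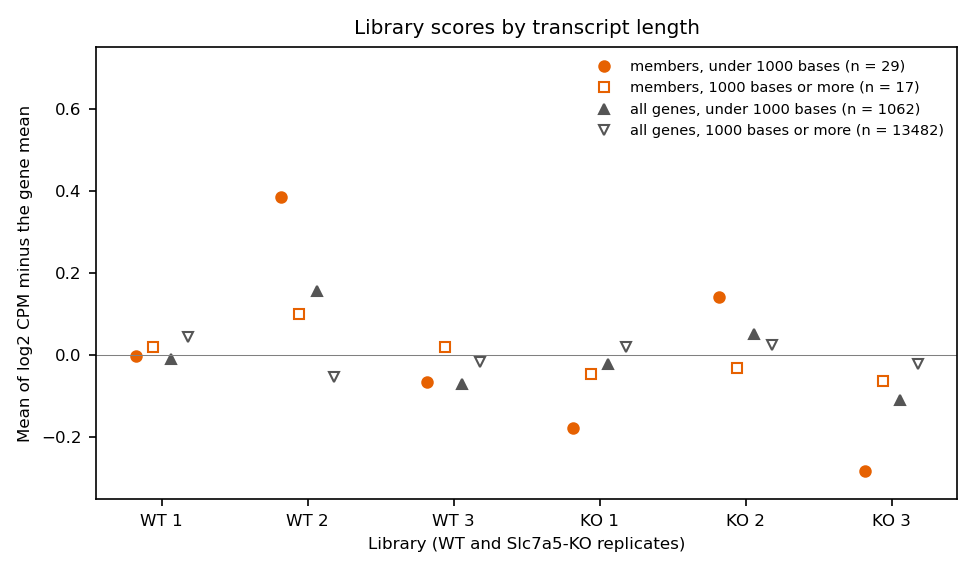
Mean of log2 CPM minus the gene mean (vertical axis) in each library (horizontal axis), for members (orange) and all genes tested (grey) with transcripts under 1000 bases (filled) or longer (open). Short members range from -0.28 to 0.385 and long members from -0.062 to 0.10, and the short genes as a whole are highest in the same library of each group.

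Complex II oxidises succinate and is the only complex here with all its subunits encoded in the nucleus. Sdha, the flavoprotein that binds succinate, stood at 143, 140 and 135 CPM in WT against 132, 146 and 128 CPM in the KO-labelled libraries (log2 -0.044 ± 0.12 SE, edgeR adjusted p = 0.99). Sdhb, the iron-sulfur subunit, stood at 81.2, 98.0 and 98.2 CPM against 78.7, 83.0 and 74.8 CPM (log2 -0.23 ± 0.14 SE, edgeR adjusted p = 0.86). Both overlapped between groups, Sdhb only through WT replicate 1. Sdhd, a membrane anchor, stood at 131, 150 and 141 CPM against 122, 126 and 123 CPM, with no overlap and a log2 value of -0.19 ± 0.12 SE (edgeR adjusted p = 0.89). Its values in the KO-labelled libraries lay close together. Sdhc, the other anchor, had -0.10 ± 0.12 SE.

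Complex III passes electrons from ubiquinol to cytochrome c. Cyc1, cytochrome c1, stood at 143, 166 and 145 CPM in WT against 136, 167 and 160 CPM in the KO-labelled libraries (log2 0.029 ± 0.13 SE, edgeR adjusted p = 0.99). Uqcrfs1, the Rieske iron-sulfur protein, stood at 126, 129 and 123 CPM against 118, 114 and 97.1 CPM (log2 -0.20 ± 0.13 SE, edgeR adjusted p = 0.89). The WT libraries were tight for Uqcrfs1, and all 3 KO-labelled libraries lay below them. The small subunits spread far more within a group. Uqcrq stood at 220, 432 and 197 CPM in WT against 266, 385 and 249 CPM in the other group, and Uqcr10 at 80.1, 163 and 99.2 against 64.1, 104 and 55.8 CPM. Replicate 2 was the highest of its group for both genes, and the SD of the WT values exceeded the difference between group means. Uqcrb, the low one, stood at 10.4, 13.2 and 9.02 CPM against 8.45, 6.69 and 7.72 CPM (log2 -0.51 ± 0.27 SE), without overlap. Uqcrh, the hinge protein, had -0.28 ± 0.14 SE, and the core proteins Uqcrc1 and Uqcrc2 had -0.11 ± 0.13 SE and 0.040 ± 0.13 SE.

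Complex IV, cytochrome c oxidase, reduces oxygen to water. Cox4i1 stood at 696, 937 and 790 CPM in WT against 593, 886 and 654 CPM in the KO-labelled libraries (log2 -0.18 ± 0.16 SE, edgeR adjusted p = 0.94). Cox5a, which sits on the matrix side, stood at 105, 66.6 and 76.2 CPM against 89.8, 87.3 and 102 CPM (log2 0.17 ± 0.16 SE, edgeR adjusted p = 0.95). Cox5a went against most members in that WT replicate 2 was its lowest library. Cox7b, a small membrane subunit, stood at 60.1, 85.8 and 70.4 CPM against 51.5, 63.7 and 53.5 CPM (log2 -0.36 ± 0.16 SE, edgeR adjusted p = 0.76), and only KO-labelled replicate 2 reached the WT range. Without WT replicate 2 the log2 values were -0.061 for Cox4i1, 0.042 for Cox5a and -0.21 for Cox7b. Cox7a2l, a protein of respiratory supercomplexes, had 0.17 ± 0.18 SE (edgeR adjusted p = 0.96). Cox7c was low and uneven, at 2.60, 5.05 and 0.905 CPM against 1.05, 2.17 and 2.13 CPM.

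Among the tissue forms of complex IV, Cox6a2 and Cox8b had the smallest p, with log2 values of opposite sign, and neither passed the test. Cox6a2, the heart and skeletal muscle form of subunit 6A, lies on chromosome 7 (GRCm38, 128205435 to 128206387, minus strand) and stood at 1.87, 3.90 and 0.869 CPM in WT against 8.51, 3.78 and 5.29 CPM in the KO-labelled libraries. The group means were 2.21 ± 1.54 (SD) and 5.86 ± 2.42 CPM (SD, n = 3 each), with a log2 fold change of 1.41 ± 0.50 SE (edgeR adjusted p = 0.65). KO-labelled replicate 1 was the highest and WT replicate 3 the lowest, and KO-labelled replicate 2 lay just below WT replicate 2, so the groups overlapped. Leaving out 1 library moved the log2 value between 1.03 and 2.09. Cox6a1, the common form, stood at 135, 176 and 119 CPM against 155, 189 and 126 CPM (log2 0.13 ± 0.16 SE).

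Within a library, the log2 ratio of Cox6a2 to Cox6a1 depends on library scaling only through the prior count of 2 added before taking logs. It was -6.12, -5.47 and -6.99 in WT and -4.18, -5.62 and -4.56 in the KO-labelled libraries. The difference was 1.41 ± 0.62 (SE, n = 3 per group), with a 2-sided exact permutation p of 0.2, where 0.1 is the smallest the design allows. With 0.5 CPM added in place of the prior count, the difference was 1.19. Per length, Cox6a2 made up 1.15%, 1.83% and 0.608% of both forms in WT and 4.40%, 1.65% and 3.40% in the other group, so the common form supplied nearly all of the transcript everywhere.

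Cox8b, the heart and muscle form of subunit 8, lies on chromosome 7 (140898945 to 140900446, minus strand) and stood at 3.19, 5.88 and 2.79 CPM in WT against 1.61, 2.54 and 1.62 CPM in the KO-labelled libraries. The groups did not overlap, by a small margin, and the log2 value was -1.03 ± 0.49 SE (edgeR adjusted p = 0.80), or -0.63 without WT replicate 2. Its share of Cox8b and Cox8a per length was 3.85% ± 0.572 in WT and 1.95% ± 0.210 in the other group (SD, n = 3 each). Cox7a1, the muscle form of subunit 7A, had the largest share of any tissue form, with 18.4% ± 3.81 of Cox7a1 and Cox7a2 in WT and 18.8% ± 5.48 in the KO-labelled libraries (SD, n = 3 each). It stood at 5.17, 10.6 and 4.49 CPM against 4.33, 5.12 and 6.10 CPM (log2 -0.38 ± 0.37 SE, edgeR adjusted p = 0.95). The 3 muscle forms thus stood at 1.41, -1.03 and -0.38 on the log2 scale.

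The lung and testis forms showed no difference beyond their spread. Cox4i2, the lung form of subunit 4, stood at 3.98, 5.67 and 7.97 CPM in WT against 2.82, 5.72 and 5.37 CPM in the KO-labelled libraries (log2 -0.35 ± 0.38 SE). Cox6b2, a testis form, stood at 3.53, 2.89 and 1.59 CPM against 3.19, 1.57 and 1.18 CPM (log2 -0.42 ± 0.56 SE). Cox7b2, also a testis form, stood at 2.63, 0.325 and 2.39 CPM against 0.588, 1.83 and 0 CPM (log2 -1.10 ± 1.05 SE, edgeR adjusted p = 0.95). It had few reads, and its values crossed between the groups. Of 14 striated muscle markers other than Pvalb, which cerebellar neurons also express, 9 were under 1 CPM in all 6 libraries, with Myh4 and Myh6 at 0 and Ckm, the muscle creatine kinase, at no more than 0.037 CPM. The other 5 exceeded 1 CPM in at least 1 library, and none passed 8.45 CPM. These CPM are not per kb of transcript, so they do not rank the markers against Cox6a2 and Cox8b. Ttn, titin, stood at 4.04, 2.60 and 2.32 CPM in WT against 3.59, 8.45 and 1.397 CPM in the KO-labelled libraries, and Acta1, skeletal actin, at 1.81, 2.89 and 2.90 against 2.66, 2.13 and 5.66 CPM. Myh7 stood at 4.12, 1.66 and 2.46 against 0.960, 3.62 and 3.09 CPM, while Tnnc1 and Mb did not exceed 2.57 and 1.66 CPM. The log2 values were 0.60 ± 0.52 SE for Ttn, 0.45 ± 0.50 SE for Acta1, -0.12 ± 0.56 SE for Myh7, 0.98 ± 0.95 SE for Tnnc1 and -0.068 ± 1.21 SE for Mb. The sum of the 14 was 8.36 to 12.4 CPM in WT and 9.01 to 17.8 CPM in the other group, highest in KO-labelled replicate 2, whereas Cox6a2 was highest in KO-labelled replicate 1. These markers were chosen for display after their values were seen, and their part in the levels of the muscle forms was not tested.

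**Figure D5:**
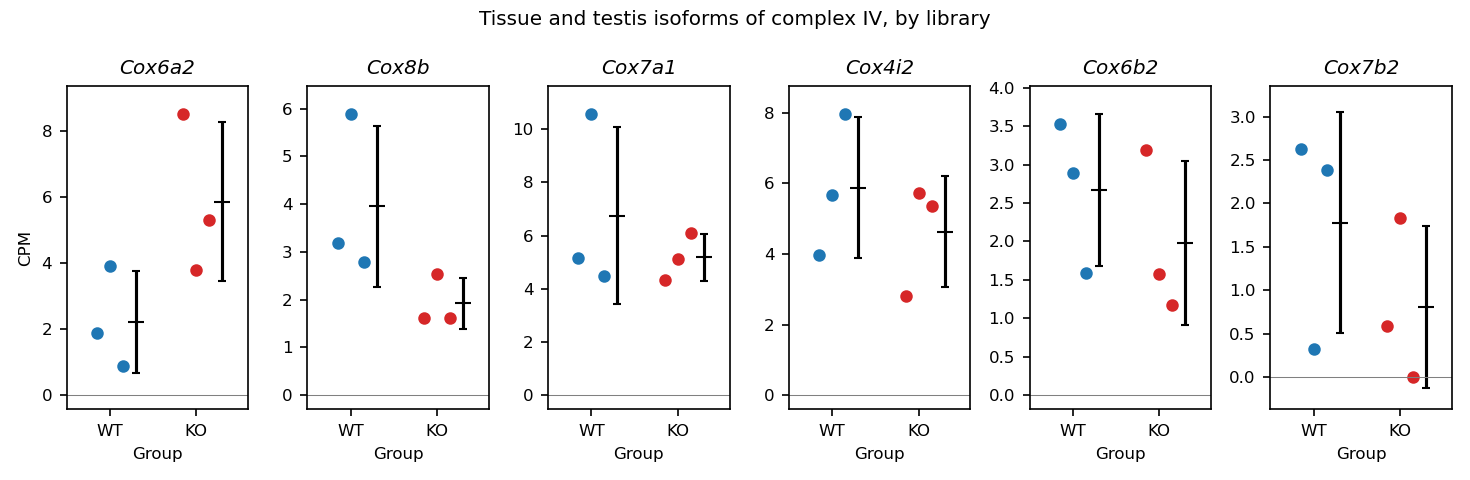
CPM (vertical axis, a scale of its own in each panel) of 6 tissue and testis forms of complex IV subunits, by group on the horizontal axis; points are libraries and black bars are means ± SD (n = 3). Cox6a2 is higher in 2 of the 3 KO-labelled libraries than in any WT library, and the 3 Cox8b values of that group lie below the WT values.

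Complex V held the members with the smallest p on both sides. Atp5h encodes subunit d of the peripheral stalk, which holds the catalytic head still, and lies on chromosome 11 (115415689 to 115419962, minus strand). It stood at 85.8, 105 and 87.7 CPM in WT against 72.6, 69.4 and 47.8 CPM in the KO-labelled libraries, or 92.7 ± 10.4 and 63.2 ± 13.5 CPM (SD, n = 3 each). The log2 fold change was -0.55 ± 0.16 SE, with an edgeR adjusted p of 0.48, against an unshrunken -0.55 and an adjusted p of 0.0484 in the authors' deposited table. The groups did not overlap, and KO-labelled replicate 3, the shallowest library, was the lowest. Without that library the log2 value was -0.38.

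The 3 subunits of the central stalk, which turns inside the head, did not share a direction. Atp5e (epsilon, chromosome 2, 174461072 to 174464105, minus strand) stood at 272.5, 390 and 321 CPM in WT against 216, 257 and 246 CPM in the KO-labelled libraries (log2 -0.45 ± 0.14 SE, edgeR adjusted p = 0.55). Atp5c1 (gamma, chromosome 2, 10056016 to 10080510, minus strand) stood at 376, 535.5 and 432 CPM against 347, 362 and 347 CPM (log2 -0.35 ± 0.14 SE, edgeR adjusted p = 0.74). Neither gene's groups overlapped, and without WT replicate 2 the log2 values were -0.31 for Atp5e and -0.20 for Atp5c1. Atp5d (delta, chromosome 10, 80138632 to 80145818, plus strand) lay on the other side, at 128, 124 and 105 CPM in WT against 146, 161 and 166 CPM in the KO-labelled libraries. Its log2 value was 0.41 ± 0.13 SE (edgeR adjusted p = 0.59), and leaving out 1 library moved it between 0.32 and 0.46. In the authors' deposited table the adjusted p was 0.0696 for Atp5e and 0.0665 for Atp5d.

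The catalytic and ring subunits differed less. Atp5b, the catalytic beta subunit, stood at 801, 708 and 703 CPM in WT against 676, 710 and 665 CPM in the KO-labelled libraries (log2 -0.11 ± 0.13 SE, edgeR adjusted p = 0.96). Atp5a1, the alpha subunit, stood at 498, 394 and 366 CPM against 467, 429 and 427 CPM (log2 0.072 ± 0.14 SE, edgeR adjusted p = 0.98). In both genes WT replicate 1 was the highest library. The c ring is encoded by 3 genes for an identical mature protein. Atp5g3 had most of the counted reads, at 186, 164 and 211 CPM against 181, 208 and 228 CPM (log2 0.14 ± 0.13 SE, edgeR adjusted p = 0.95). Per length, Atp5g1 made up 4.21% ± 0.483 of Atp5g1 and Atp5g3 in WT and 3.53% ± 0.249 in the other group (SD, n = 3 each). That share rests on median transcript lengths of 2676 bases for Atp5g1 and 718.5 bases for Atp5g3. Atp5g2 was at 1.58, 4.01 and 2.14 CPM against 1.42, 2.54 and 1.99 CPM. Of the 50-base words, 87.4% were shared with other genes for Atp5g2, 11.1% for Atp5g1 and 0% for Atp5g3. The part of lost reads in the split between the c ring genes was not tested. The other members of complex V ranged from -0.33 ± 0.19 SE for Atp5k, a membrane subunit, to 0.030 ± 0.19 SE for Atp5j, part of the peripheral stalk. Atp5s, the factor B that binds the enzyme, had -0.13 ± 0.25 SE, and Atp5sl had 0.14 ± 0.17 SE.

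Promoter sequences are shown for Atp5h and Atp5e, the members with the smallest p on the lower side, and for Atp5d, which lay opposite to them. They are the 250 bases before the gene's start in RefSeq (GRCm38.p6), written 5′ to 3′ on the gene's strand, with motif matches in capitals. Their positions are chr11:115419920-115420169 (minus), chr2:174464102-174464351 (minus) and chr10:80142025-80142274 (plus, the first of 2 starts listed).
Atp5h: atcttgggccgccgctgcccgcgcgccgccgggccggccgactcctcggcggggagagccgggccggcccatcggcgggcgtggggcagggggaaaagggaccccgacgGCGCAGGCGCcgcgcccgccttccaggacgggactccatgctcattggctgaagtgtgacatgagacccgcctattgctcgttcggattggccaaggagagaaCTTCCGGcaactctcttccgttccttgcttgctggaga
Atp5e: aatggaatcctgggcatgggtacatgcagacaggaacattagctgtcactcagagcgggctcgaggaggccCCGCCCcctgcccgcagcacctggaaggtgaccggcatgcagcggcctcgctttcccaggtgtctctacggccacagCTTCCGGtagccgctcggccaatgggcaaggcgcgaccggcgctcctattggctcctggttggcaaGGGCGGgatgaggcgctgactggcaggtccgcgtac
Atp5d: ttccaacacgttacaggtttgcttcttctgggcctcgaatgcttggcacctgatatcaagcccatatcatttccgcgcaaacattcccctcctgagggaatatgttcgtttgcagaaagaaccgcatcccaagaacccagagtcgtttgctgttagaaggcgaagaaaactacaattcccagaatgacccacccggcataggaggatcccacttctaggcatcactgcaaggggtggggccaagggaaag
Capitals mark GCGCA and GCGC separated by 1 base of any kind (the NRF1 motif) and CCGGAAG on either strand (the core of the GABPA motif) in Atp5h, and CCGGAAG and GGGCGG (the SP1 box) on either strand in Atp5e. The Atp5d window holds none of the motifs searched. It lies inside the GENCODE span of the gene given above (80138632 to 80145818), so the RefSeq start used lies downstream of the GENCODE gene start.

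NRF1 and GABPA are transcription factors known for binding many respiratory gene promoters, and 33 members had a promoter in the table (not Atp5a1, Atp5f1, Atp5s, Atp5sl, Cox4i1, Cox4i2, Cox6a2, Cox6c, Cyc1, Sdhc, Uqcrb, Uqcrc2 or Uqcrq). In windows of 300 bases (250 before and 50 after the start), searched on both strands, the NRF1 motif was present in 10 of the 33 (30.3%) and in 10.2% of 12082 tested genes with a promoter. CCGGAAG was present in 11 (33.3%) against 17.5%. TCAAGGTCA, the ERR motif, was present in 2, Sdhd and Atp5g3 (6.06%), against 0.331%. GGGCGG was present in 12 (36.4%) against 66.3%, and ATGGCGGC, the YY1 core, in 0 against 4.92%. Motif matches do not overlap in the windows shown. These are letter matches and show no binding.

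Other genes of the pathway were read from lists of fixed symbols, and no gene of the lists passed the test in either direction by edgeR. The list of complex I subunits holds 37 genes with Nduf names, among them Ndufa4, a protein of complex IV despite its name. The 37 genes had a median log2 fold change of -0.21, close to that of the members, with 32 below 0 (49.7% of all genes were). At an unadjusted p under 0.05 there were 7, all 7 lower (2.77% of all genes), and Ndufa4 was one of them (log2 -0.48 ± 0.19 SE). Their library scores, -0.011, 0.30 and 0.031 in WT and -0.17, 0.081 and -0.22 in the KO-labelled libraries, had the members' order except for WT replicates 1 and 3. Ndufb4, a complex I subunit, had the smallest p (log2 -0.63 ± 0.15 SE, edgeR adjusted p = 0.21) and Ndufc2 the next (-0.43 ± 0.13 SE, edgeR adjusted p = 0.52). The 32 assembly factors of complexes II to V that were tested had a median of -0.014, with 17 below 0 and 15 above. Tmem70, needed for building ATP synthase, had -0.46 ± 0.15 SE (edgeR adjusted p = 0.59) and Sdhaf4, an assembly factor of complex II, -0.43 ± 0.15 SE (edgeR adjusted p = 0.63).

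The 11 tested mitochondrially encoded subunits, which join these nuclear subunits in complexes I, III, IV and V, had a median of 0.027, with 6 above 0 and 5 below. Several were close to the floor: mt-Co2 stood at 0.0735 to 0.593 CPM and mt-Co3 at 1.54 to 3.18 CPM over the 6 libraries, and mt-Atp6, the only tested one of complex V, at 0.282 to 1.76 CPM. mt-Atp8 and mt-Nd4l were too low to test. mt-Nd3, of complex I, had the smallest p, at 3.39, 1.80 and 4.09 CPM in WT against 5.73, 4.67 and 6.18 CPM in the KO-labelled libraries, without overlap (log2 0.83 ± 0.40 SE, edgeR adjusted p = 0.81). mt-Cytb, cytochrome b of complex III, came next (log2 0.17 ± 0.14 SE, edgeR adjusted p = 0.94). The list of tricarboxylic acid cycle enzymes holds 16 genes, among them Pdha1, Pdhb and Dlat of pyruvate dehydrogenase, an enzyme outside the cycle. The median of the 16 was -0.048, with 11 below 0. Pdhb, of pyruvate dehydrogenase, had -0.55 ± 0.19 SE (edgeR adjusted p = 0.62) and Sucla2, of succinyl-CoA synthetase, -0.33 ± 0.14 SE (edgeR adjusted p = 0.74). The 9 cytochrome c and ATP synthase partners had a median of -0.10, with 7 below 0. Vdac3, a channel of the outer membrane, had -0.70 ± 0.41 SE (edgeR adjusted p = 0.86), and Slc25a5, an ADP/ATP carrier, -0.19 ± 0.13 SE (edgeR adjusted p = 0.89). Of the 12 regulators of respiratory genes, 7 were below 0, with a median of -0.047. Gabpa, which encodes the DNA-binding part of the GABP factor, stood at 27.9, 36.3 and 37.1 CPM in WT against 26.3, 21.8 and 18.8 CPM in the KO-labelled libraries, without overlap (log2 -0.59 ± 0.19 SE, edgeR adjusted p = 0.59). Yy1 had -0.53 ± 0.19 SE (edgeR adjusted p = 0.67). On the other side, and chosen after their values were seen, Tfb2m, a mitochondrial transcription factor, had 1.52 ± 0.67 SE (edgeR adjusted p = 0.76) at 0.433 to 3.82 CPM, and Tfb1m, an rRNA methyltransferase of mitochondria, 0.51 ± 0.30 SE (edgeR adjusted p = 0.86).

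Cell type markers moved with the groups in part, and their part in the members' values was not tested. The 12 Purkinje markers were all below 0 (49.7% of all genes were), with a median of -0.33. At an unadjusted edgeR p under 0.05 there were 5, all lower (2.77% of all genes). Their scores were 0.062, 0.36 and 0.087 in WT and 0.047, -0.43 and -0.12 in the KO-labelled libraries. WT replicate 2 was highest for Purkinje markers as for the members, while KO-labelled replicate 2 was lowest for them and high for the members. Granule neuron markers had a median of -0.17 and choroid plexus markers -0.73, with 10 of 10 below 0 in the latter. Interneuron and Golgi cell markers had 0.049, astrocyte and Bergmann glia markers -0.085 and oligodendrocyte markers -0.0095. Endothelial and pericyte markers had 0.14 (10 of 14 above 0, none at an unadjusted p under 0.05, where 6.22% of all genes were). Microglia markers had 0.20, with 9 of 10 above 0. At an unadjusted edgeR p under 0.05, 3 microglia markers were higher (3.45% of all genes) and 0 lower (2.77%). Striated muscle markers (6 tested) had 0.19, blood cell markers 0.022 and the 2 tested brown adipocyte markers -0.064.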

How the data were processed

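Cerebellum RNA of 6 mice (3 labelled WT, 3 labelled Slc7a5-KO) was sequenced with the SENSE mRNA-Seq kit (Lexogen), per the labels' protocols. The authors deposited read counts per gene and strand. STAR 2.5.4, build GRCm38 (mm10), R 3.2.4 and DESeq2 1.10.1 are named in the submitters' processing notes. The sources used here do not name the annotation release or say whether duplicates were removed. The authors' deposited table gives a mean normalised signal, log2 fold changes, a Wald score and p-values, per the file headers. Its mean matched the reverse-strand counts within 0.1% for 45 of 45 matching genes with a mean over 50.

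Reverse-strand counts (94.8% to 95.8% of stranded reads) were used. Reads in no gene or in several, 19.5% to 22.2%, were left out. Genes were filtered (filterByExpr, minimum count 10, minimum total 15) to 16851, all 46 members among them, with TMM scaling. The test was the 2-sided, robust quasi-likelihood test of edgeR 4.0.16 in R 4.3.3, with Benjamini-Hochberg adjustment over all genes and a common biological coefficient of variation of 31.6%. CPM are TMM-scaled; log2 CPM used a prior count of 2. Levels per kb used the median length of a gene's protein-coding transcripts (GENCODE, GRCm38), which is also the source of coordinates. Alternatives were other scalings, no filter, both strands together, DESeq2 1.42.0, limma-voom (limma 3.58.1), a replicate block, a sex term and each library left out.

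Members and gene lists were chosen with earlier results of these data known. Genes named with statistics were those past the threshold, the 5 with the smallest p each way, core subunits of each complex, tissue forms, those nearest the read threshold and those varying over 2.5-fold within a group; of each other pathway list, the 2 with the smallest p. Sdhc, Sdhd, Cox6a1, Atp5g1, Atp5j, Atp5k, Atp5s, Atp5sl, the Uqcr genes other than Uqcrfs1, and genes named only for their level or shared sequence, were named after their values were seen. The splits by transcript length and shared 50-base words were also added after seeing the data. The replicates are separate samples in the labels.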

Additional observations from a re-analysis of the deposited data

How the results depend on the processing

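No member was called under any of the 14 alternatives by edgeR, DESeq2 or limma-voom, with 4 to 13 members at an unadjusted p under 0.05. The lowest count, 4, came without KO-labelled replicate 1 (8.44% of all genes) or 3 (3.75%), and the highest, 13, without KO-labelled replicate 2 (6.31%). The smallest adjusted p of a member was 0.078, for Atp5h without the filter on low counts. The members' median log2 fold change stayed below 0, from -0.20 to -0.14 under other scalings, filters, counts and tests and -0.215 to -0.041 with single libraries left out, lowest without KO-labelled replicate 2 and nearest 0 without WT replicate 2. Without WT replicate 2 the medians of complexes II, III, IV and V were -0.11, -0.13, -0.028 and -0.021. Over all genes, edgeR called 8, against 71 without the filter, 16 with a sex term, 47 by DESeq2 and 3 to 20 when 1 library was left out. The cause was not tested.

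Of the 46 members, 13 changed sign under some alternative, most (7) without WT replicate 2. Among the 23 members followed singly, the sign changed for Cyc1 (-0.0366 to 0.113 over libraries left out; -0.0091 without WT replicate 1, -0.0029 without WT replicate 3, -0.037 without KO-labelled replicate 2), Atp5a1 (-0.0194 to 0.216, with -0.019 without WT replicate 3), and, without WT replicate 2, Atp5g2 (0.096), Cox7a1 (0.099) and Cox7c (0.017), whose ranges over libraries left out were -0.631 to 0.0964, -0.611 to 0.0988 and -1.11 to 0.0166. The other 8 were Atp5f1, Atp5j, Atp5s, Cox5b, Cox6a1, Cox8a, Uqcrc2 and Uqcrq. The Cox6a2 to Cox6a1 ratio differed by 1.01 to 1.82 when 1 library was left out (2-sided exact permutation p of 0.2 to 0.4). The smallest p that this permutation test allows with 1 library left out is 0.2. With the replicate number as a block, edgeR called 6 genes and 0 members, with a members' median of -0.17. Over all genes tested, same-numbered libraries did not deviate together (correlations of -0.038, -0.059 and -0.027, none the best match). Among the members, replicate 2 was the highest of its group for 30 in WT and for 29 in the KO-labelled libraries. What the shared number stands for is not stated in the labels and was not tested. Few reads limit Cox7b2, Cox6b2, Cox8b, Cox7c, Atp5g2 and Cox6a2. Cox6a2 had 66, 108 and 24 reads in WT and 275, 101 and 72 in the KO-labelled libraries.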
